A study of Mus musculus with 9 samples.

Results

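The 8 genes described here encode components, regulators and receptors of the complement system, and were chosen by gene name from the deposited expression table. All 8 names were found among 34745 genes, once each, and all 8 passed the filter on low counts that left 14506 genes for testing. RNA sequencing covered 9 tumours grown under the skin from LLC, the mouse Lewis lung carcinoma line, 3 tumours in each of 3 groups. The BTZ+anti-PDL1 group received an antibody against PDL1, a ligand of the T cell checkpoint receptor PD-1, at 10 mg/kg. Together with it, that group received bortezomib (BTZ), an inhibitor of the proteasome, at 0.5 mg/kg. The anti-PDL1 group received that antibody alone at 10 mg/kg, and the isotype group received an isotype control antibody at 10 mg/kg. All were given into the peritoneum. Every host was a male C57BL/6 mouse labelled WT with an intact immune system, and hosts were randomised when tumours were near 100 mm3. The labels give the hosts' age as 6 to 8 with no unit, and hold no group given BTZ alone. The replicates are separate tumours of separate mice, but of 1 transplanted cell line.

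Complement is a cascade of plasma and tissue proteins that tags targets, draws in white cells and can open pores in membranes. Classical and lectin recognition cleave C4 and C2, the alternative pathway uses factor B and is stabilised by properdin, and all routes meet at C3. Small fragments split from C3 and C5 act on receptors of myeloid cells, and soluble and surface regulators hold the cascade in check. The liver makes most plasma complement, while macrophages, fibroblasts and tumour cells can also make these proteins locally. Interferon-gamma is known to raise transcription of several of these genes, among them C2, C4, Cfb and Serping1, in a range of cell types.

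Column totals ran from 18.52 to 21.51 M counts (M, mega), and no pair of the 36 tumour pairs was close enough to be a repeat of 1 library. The tissue held markers of several cell types, and the summed CPM (counts scaled to a common library size by TMM) of each marker list is given by group. All 10 macrophage and monocyte markers were counted, with sums of 2139 to 3191 CPM in BTZ+anti-PDL1 tumours, 2715 to 2849 CPM in anti-PDL1 tumours and 1646 to 2947 CPM in isotype tumours. All 7 fibroblast markers were counted, and their sums of 1937 to 2127 CPM in BTZ+anti-PDL1 tumours lay below the 2362 to 3615 CPM of anti-PDL1 tumours, against 2146 to 2992 CPM in isotype tumours. Without the collagen genes Col1a1 and Col1a2 the other 5 summed to 1122 to 1795 CPM in BTZ+anti-PDL1 tumours, 1398 to 1580 CPM in anti-PDL1 tumours and 1041 to 2047 CPM in isotype tumours, which all overlapped. Of 6 hepatocyte markers 5 had a count, none passed the filter, and no sum exceeded 0.693 CPM, with Tat at 0 in every tumour. The labels call the cells lung adenocarcinoma. Of 9 lung and epithelial markers 6 had a count, and 5 (Krt8, Krt18, Krt19, Napsa and Cdh1) passed the filter. Their list summed to 119 to 144 CPM in BTZ+anti-PDL1, 85.4 to 122 CPM in anti-PDL1 and 119 to 141 CPM in isotype tumours. Krt18 held the largest part, at 56.6 to 113.3 CPM. The lung transcription factor Nkx2-1 and surfactant genes Sftpb and Sftpc were at 0 in every tumour, and Epcam reached at most 5 counts. A further difference between tumours was skeletal muscle RNA. The 6 muscle markers summed to 2363 CPM in isotype replicate 3, against 3.78 and 5.89 CPM in isotype replicates 1 and 2. They summed to 4.22 to 635 CPM in BTZ+anti-PDL1 tumours and 92.3 to 848 CPM in anti-PDL1 tumours. In such tissue fewer cells of a type and less RNA per cell cannot be told apart.

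On the deposited FPKM scale, which divides by gene length, Cfp was the most abundant of the 8 and C2 the least. Over 9 tumours the level of Cfp averaged 36.0 ± 8.06 FPKM, C3ar1 24.0 ± 5.02 FPKM and C3 18.6 ± 9.74 FPKM (SD, n = 9). C5ar1 averaged 11.6 ± 4.73 FPKM, Serping1 9.65 ± 5.24 FPKM, C4b 7.81 ± 3.83 FPKM and Cfb 5.17 ± 2.34 FPKM, with C2 at 0.938 ± 0.206 FPKM. Cfp was above C3ar1 in 9 of 9 tumours, and Cfb was above C2 in 9 of 9. Each of the other neighbours in this order held its place in 6 or 7 of 9 tumours, and every neighbouring pair but Cfb and C2 had ranges of FPKM over tumours that overlapped.

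C4b and C2 are the substrates of the classical and lectin routes, and in mice C4b (ENSMUSG00000073418, chr17:34728380-34743882, minus strand, mm10) is the gene of functional C4. Its level was 46.1, 35.2 and 40.9 CPM in BTZ+anti-PDL1 tumours, 86.4, 70.6 and 66.5 CPM in anti-PDL1 tumours, and 13.4, 21.6 and 61.2 CPM in isotype tumours, in the order of replicates 1, 2 and 3, as throughout. The 3 anti-PDL1 tumours were the 3 highest of the 9, while isotype replicate 3 stood well above the other isotype tumours and above every BTZ+anti-PDL1 tumour. In the annotation, 34.6% of the 50-base stretches in C4b's transcripts also occur in those of C4a, its near copy, so some C4b reads could have been split between them. C4a itself was low, at a mean of 0.252 FPKM.

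C2 encodes a protease zymogen that joins the C4 fragment to form the C3-cleaving enzyme (ENSMUSG00000024371, chr17:34862604-34898265, minus strand). It had 7.16, 4.33 and 6.45 CPM in BTZ+anti-PDL1 tumours, 5.20, 5.89 and 5.48 CPM in anti-PDL1 tumours, and 3.46, 4.50 and 5.12 CPM in isotype tumours. The anti-PDL1 tumours lay in a narrow band just above all isotype tumours. BTZ+anti-PDL1 replicates 1 and 3 were the highest of the 9 tumours, while replicate 2 lay below that band, within the isotype range.

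C3 (ENSMUSG00000024164, chr17:57203970-57228136, minus strand) is the central component on which all routes converge. Its level was 119.9, 54.8 and 122.2 CPM in BTZ+anti-PDL1 tumours, 173.3, 175.4 and 92.0 CPM in anti-PDL1 tumours, and 28.2, 42.4 and 141.8 CPM in isotype tumours. All 3 groups overlapped. Isotype replicate 3 was the third highest tumour of the 9 while isotype replicates 1 and 2 were the lowest, and anti-PDL1 replicate 3 lay below BTZ+anti-PDL1 replicates 1 and 3.

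Cfb encodes factor B, the protease of the alternative pathway (ENSMUSG00000090231, chr17:34856374-34862518, minus strand), and lies 85 bases from C2. It had 36.1, 20.9 and 26.4 CPM in BTZ+anti-PDL1 tumours, 45.0, 18.5 and 30.2 CPM in anti-PDL1 tumours, and 10.9, 11.6 and 23.5 CPM in isotype tumours. The groups overlapped, with isotype replicate 3 above anti-PDL1 replicate 2. That low value of anti-PDL1 replicate 2 stood beside a high count for Gm20547, an annotated gene (ENSMUSG00000092511, chr17:34856412-34882042, minus strand) whose transcripts join exons of C2 to exons of Cfb. Of its 3902 exonic bases, 57.56% are also exonic in Cfb and 42.44% in C2, so it covers 79.5% of the exonic bases of Cfb. The sequence below shows 1 such join, with the end of the C2 exon (chr17:34863345-34863474) in lower case and the start of the Cfb exon (chr17:34861731-34861964) in capitals, both coding, read 5′ to 3′ on the minus strand of mm10 (GENCODE M21).
C2-Cfb join in Gm20547: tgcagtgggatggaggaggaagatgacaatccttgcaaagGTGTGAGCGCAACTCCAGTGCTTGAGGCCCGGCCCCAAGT

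Reads from any other exonic position shared by Cfb and Gm20547 could be counted for either gene, since only a read that crosses a join or reaches unshared bases separates them. Gm20547 had 9, 3 and 389 counts in BTZ+anti-PDL1 tumours, 7, 511 and 14 counts in anti-PDL1 tumours, and 6, 7 and 242 counts in isotype tumours. In 3 tumours, 1 per group, it therefore held 43.4% (BTZ+anti-PDL1 replicate 3), 58.3% (anti-PDL1 replicate 2) and 35.0% (isotype replicate 3) of the sum of both genes. In the other 6 tumours that share was 0.761% to 2.90%. C2 had 124, 116 and 98 counts in those 3 tumours, within its range of 66 to 143 counts over all 9. Adding Gm20547 to Cfb gave 36.6, 21.0 and 46.7 CPM in BTZ+anti-PDL1 tumours, 45.3, 44.5 and 30.9 CPM in anti-PDL1 tumours, and 11.2, 11.9 and 36.1 CPM in isotype tumours. On the sum anti-PDL1 replicate 2 moved to the level of replicate 1, and isotype replicate 3 was above anti-PDL1 replicate 3, which it was below on Cfb alone. Whether these counts came from joined transcripts or from the assignment of reads to overlapping genes was not tested.

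**Figure D1:**
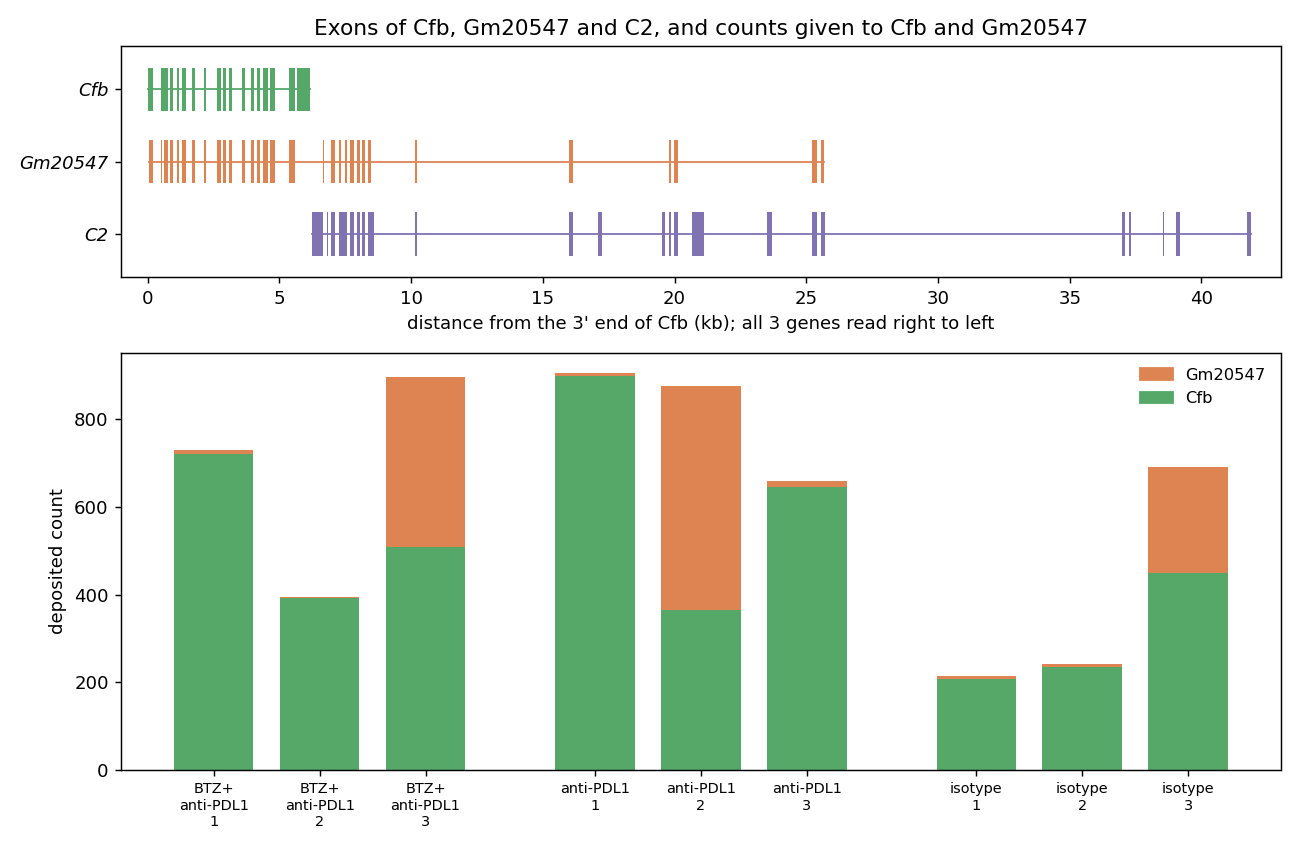
The upper panel maps the annotated exons (boxes) of Cfb, Gm20547 and C2 by distance in kb from the 3′ end of Cfb, and the lower panel shows for each tumour the deposited count of Cfb (green) with that of Gm20547 (orange) stacked on it. Gm20547 takes 389 counts in BTZ+anti-PDL1 replicate 3, 511 in anti-PDL1 replicate 2 and 242 in isotype replicate 3, and at most 14 in the other tumours.

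Cfp encodes properdin, which stabilises the alternative C3-cleaving enzyme and is made by white cells (ENSMUSG00000001128, chrX:20925454-20931555, minus strand). It had 76.1, 70.0 and 69.5 CPM in BTZ+anti-PDL1 tumours, 70.9, 86.7 and 76.1 CPM in anti-PDL1 tumours, and 57.6, 49.4 and 103.2 CPM in isotype tumours. The BTZ+anti-PDL1 and anti-PDL1 tumours sat between the isotype tumours, which held the lowest pair and the highest single value of the 9. Its lowest value, in isotype replicate 2, stood beside the lowest macrophage and monocyte marker sum of the 9 tumours (1646 CPM), and the part of those cells in it was not tested.

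Serping1 encodes C1 inhibitor, which blocks the proteases that start the classical and lectin routes (ENSMUSG00000023224, chr2:84765387-84775444, minus strand). Its level was 23.1, 10.4 and 24.6 CPM in BTZ+anti-PDL1 tumours, 37.8, 54.3 and 30.8 CPM in anti-PDL1 tumours, and 7.45, 19.3 and 38.0 CPM in isotype tumours. Every BTZ+anti-PDL1 tumour was below every anti-PDL1 tumour, and the isotype tumours reached from below the first of these groups into the second.

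C3ar1 and C5ar1 encode the receptors for the C3a and C5a fragments, which are carried mainly by myeloid cells. C3ar1 (ENSMUSG00000040552, chr6:122847138-122856161, minus strand) had 112.7, 122.5 and 84.0 CPM in BTZ+anti-PDL1 tumours, 124.7, 124.0 and 103.7 CPM in anti-PDL1 tumours, and 80.4, 69.0 and 107.5 CPM in isotype tumours. Its groups overlapped, with isotype replicates 1 and 2 the lowest of the 9. C5ar1 (ENSMUSG00000049130, chr7:16246743-16259540, minus strand) had 63.4, 57.6 and 56.6 CPM in BTZ+anti-PDL1 tumours, 60.6, 67.5 and 66.5 CPM in anti-PDL1 tumours, and 6.66, 48.7 and 95.5 CPM in isotype tumours. The C5ar1 values were close together within the BTZ+anti-PDL1 group and within the anti-PDL1 group, whereas the isotype group held both the lowest and the highest tumour of the 9. The low value in isotype replicate 1 rested on 127 counts, against 983 to 1827 counts in the other 8 tumours. Macrophage and monocyte markers were not low in that tumour, with a sum of 2634 CPM, and neutrophil markers summed to 71.4 CPM, within the range of the other tumours.

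**Figure D2:**
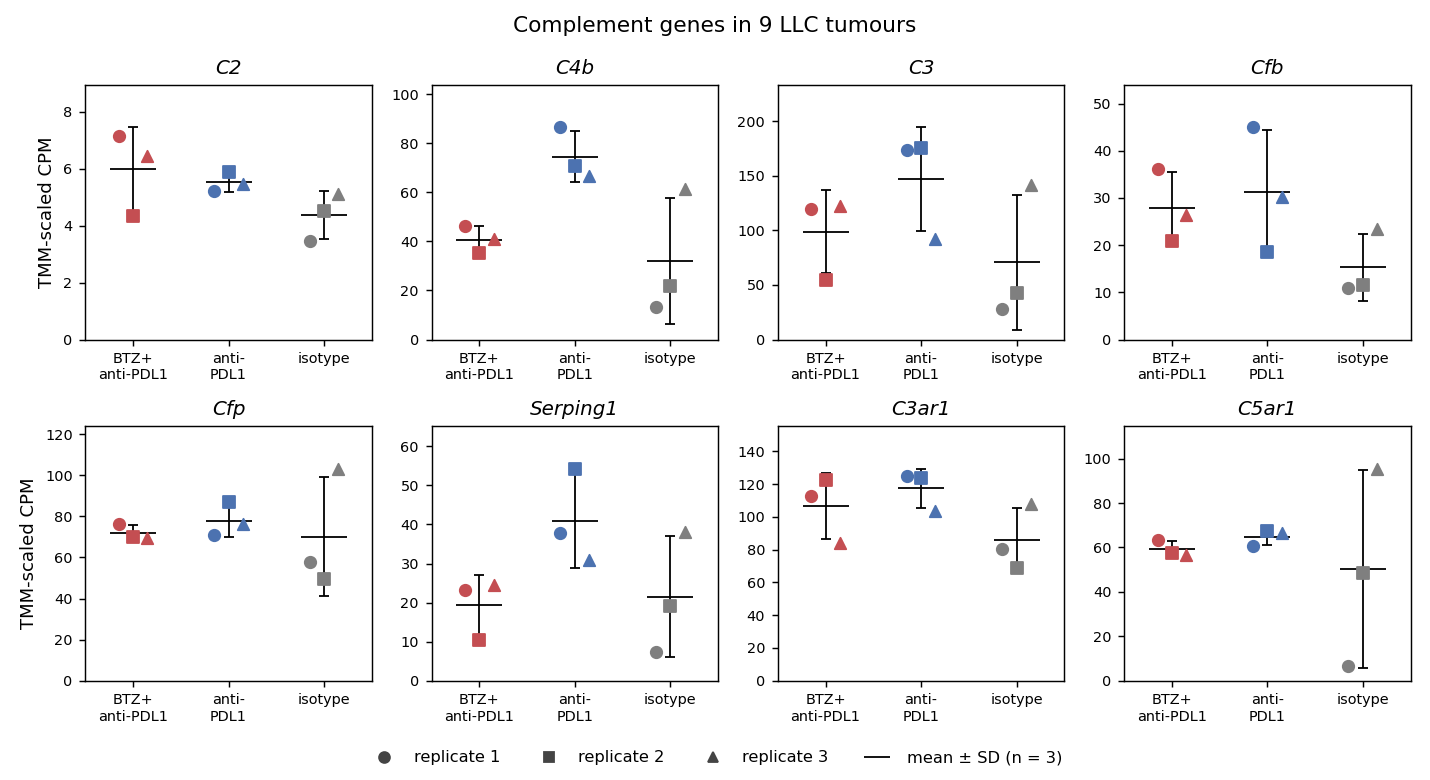
Each panel plots 1 gene as TMM-scaled CPM from 0 on a linear axis, with 1 point per tumour, a bar at the group mean and whiskers of 1 SD (n = 3), for BTZ+anti-PDL1, anti-PDL1 and isotype from left to right. The isotype group is the most spread for C4b, C3, Cfp, Serping1 and C5ar1, with replicate 3 as its highest tumour in every panel.

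The spread between tumours was wide for 5 of the 8 genes. The ratio of the highest to the lowest tumour was 14.3 for C5ar1, 7.29 for Serping1, 6.46 for C4b, 6.23 for C3 and 4.14 for Cfb. Over all 14506 genes the median of that ratio was 1.46. It was 2.09 for Cfp, 2.07 for C2 and 1.81 for C3ar1, and 66.6% of all genes had a smaller ratio than the last of these. The lowest of the 9 tumours was isotype replicate 1 for 6 of the 8 genes and isotype replicate 2 for Cfp and C3ar1. The highest was anti-PDL1 replicate 1 for C4b, Cfb and C3ar1, anti-PDL1 replicate 2 for C3 and Serping1, isotype replicate 3 for Cfp and C5ar1, and BTZ+anti-PDL1 replicate 1 for C2. Isotype replicate 3 was the highest isotype tumour for all 8 genes, and it also had the highest sums of muscle (2363 CPM), adipocyte (102.5 CPM) and neutrophil (108.5 CPM) markers of the 9 tumours. The part of that tissue in the complement values was not tested.

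**Figure D3:**
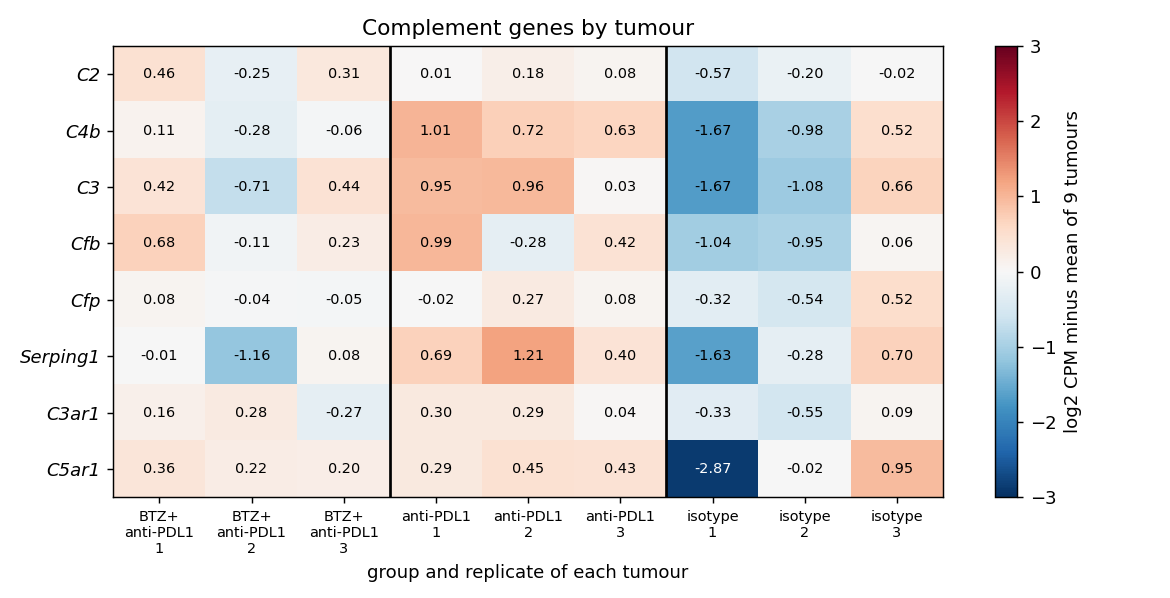
Rows are the 8 genes and columns the 9 tumours, and each cell gives log2 CPM minus the gene's mean over the 9 tumours, from blue (below) to red (above). The lowest cell is C5ar1 in isotype replicate 1, at -2.87, and every gene is below its mean in isotype replicates 1 and 2.

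The first comparison, anti-PDL1 against isotype, asks what the antibody alone did. All 8 genes had a higher fitted value in anti-PDL1 tumours, against 49.0% of all genes tested, and none passed an adjusted p under 0.05. The median log2 fold change of the 8 was 0.69, against -0.0034 over all genes. C4b and C2 did not overlap between groups, with every anti-PDL1 tumour above every isotype tumour, as held for 6.08% of all genes. By edgeR's quasi-likelihood test 0 of the 8 were called, against 0.0138% of all genes, and 3 of the 8 (C4b, Cfb and C3ar1) had an unadjusted p under 0.05, against 6.35% of all genes. DESeq2 and limma called none of the 8 either.

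C4b averaged 74.5 ± 10.5 CPM in anti-PDL1 tumours and 32.1 ± 25.5 CPM in isotype tumours (SD, n = 3 each), a log2 fold change of 1.22 ± 0.508 (SE; edgeR adjusted p = 0.763). C3 averaged 146.9 ± 47.5 CPM in anti-PDL1 tumours and 70.8 ± 61.9 CPM in isotype tumours, with a log2 fold change of 1.05 ± 0.656 (edgeR adjusted p = 0.813). For Cfb the means were 31.2 ± 13.2 CPM in anti-PDL1 tumours and 15.3 ± 7.08 CPM in isotype tumours, with a log2 fold change of 1.03 ± 0.413 (edgeR adjusted p = 0.763). With Gm20547 added to Cfb that log2 fold change was again 1.03, with a larger SE of 0.505. Serping1 averaged 41.0 ± 12.1 CPM in anti-PDL1 tumours and 21.6 ± 15.4 CPM in isotype tumours, a log2 fold change of 0.93 ± 0.587 (edgeR adjusted p = 0.816). These 4 genes thus had log2 fold changes near 1, with SEs of 0.413 to 0.656.

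The other 4 genes differed less. C3ar1 had a log2 fold change of 0.46 ± 0.186 (edgeR adjusted p = 0.763) and C2 one of 0.34 ± 0.225 (edgeR adjusted p = 0.819). C5ar1 averaged 64.8 ± 3.76 CPM in anti-PDL1 tumours and 50.3 ± 44.4 CPM in isotype tumours, a log2 fold change of 0.37 ± 0.739 (edgeR adjusted p = 0.942). Cfp averaged 77.9 ± 8.06 CPM in anti-PDL1 tumours and 70.1 ± 29.0 CPM in isotype tumours, a log2 fold change of 0.15 ± 0.246 (edgeR adjusted p = 0.917).

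Single isotype tumours moved these values. Without isotype replicate 3 the log2 fold change of C4b was 2.09 ± 0.225, just short of the threshold (edgeR adjusted p = 0.0506, range over the alternatives 0.0506 to 0.982). Without that tumour the log2 fold change was 2.06 for C3, 1.62 for Serping1, 1.48 for Cfb, 1.23 for C5ar1 and 0.54 for Cfp. Without isotype replicate 1 it was 0.85 for C4b, 0.68 for C3, 0.52 for Serping1 and -0.15 for C5ar1. So the sign for C5ar1 depended on the 1 tumour with 127 counts.

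The second comparison, BTZ+anti-PDL1 against anti-PDL1, asks what BTZ added to the antibody. Here 7 of the 8 genes had a lower fitted value in BTZ+anti-PDL1 tumours, against 49.2% of all genes, and the exception was C2. The median log2 fold change of the 8 was -0.15, against 0.0029 over all genes. C4b and Serping1 were lower in every BTZ+anti-PDL1 tumour than in any anti-PDL1 tumour, as held for 6.99% of all genes. By edgeR 0 of the 8 were called, against 0.0138% of all genes, and 0 had an unadjusted p under 0.05, against 5.82% of all genes. DESeq2 and limma also called 0.

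Serping1 averaged 19.4 ± 7.80 CPM in BTZ+anti-PDL1 tumours and 41.0 ± 12.1 CPM in anti-PDL1 tumours (SD, n = 3 each), a log2 fold change of -1.08 ± 0.589 (edgeR adjusted p = 0.886). C4b averaged 40.7 ± 5.50 CPM in BTZ+anti-PDL1 tumours and 74.5 ± 10.5 CPM in anti-PDL1 tumours, a log2 fold change of -0.87 ± 0.503 (edgeR adjusted p = 0.886). The SE of C4b comes from 1 spread shared by all 9 tumours, the variable isotype group among them. With only the 6 tumours compared it was -0.87 ± 0.130, still not called (edgeR adjusted p = 0.0973, range over the alternatives 0.0973 to 0.999). The sum of the 7 fibroblast markers did not overlap between these groups either, at 1937 to 2127 CPM in BTZ+anti-PDL1 tumours and 2362 to 3615 CPM in anti-PDL1 tumours. Of the single markers only Pdgfrb did not overlap, the other 6 did, and without Col1a1 and Col1a2 the sums overlapped. The part of fibroblasts in the C4b and Serping1 values was not tested.

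C3 averaged 99.0 ± 38.3 CPM in BTZ+anti-PDL1 tumours and 146.9 ± 47.5 CPM in anti-PDL1 tumours, a log2 fold change of -0.57 ± 0.650 (edgeR adjusted p = 0.935). Cfb had a log2 fold change of -0.17 ± 0.406, which was -0.21 ± 0.497 with Gm20547 added (edgeR adjusted p = 0.970 for each). The log2 fold changes of C3ar1 (-0.14 ± 0.185), C5ar1 (-0.13 ± 0.737) and Cfp (-0.12 ± 0.246) were all smaller than their SE. C2 averaged 5.98 ± 1.47 CPM in BTZ+anti-PDL1 tumours and 5.52 ± 0.345 CPM in anti-PDL1 tumours, a log2 fold change of 0.12 ± 0.224 (edgeR adjusted p = 0.969).

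The third comparison, BTZ+anti-PDL1 against isotype, shares its groups with both others, so its values are not independent of theirs. Of the 8 genes, 7 had a higher fitted value in BTZ+anti-PDL1 tumours, against 49.7% of all genes, and the exception was Serping1. The median log2 fold change of the 8 was 0.33, against -0.0011 over all genes. Cfb differed most, at 27.8 ± 7.72 CPM in BTZ+anti-PDL1 tumours and 15.3 ± 7.08 CPM in isotype tumours (SD, n = 3 each), a log2 fold change of 0.86 ± 0.413 (edgeR adjusted p = 0.610). With Gm20547 added it was 0.82 ± 0.505 (edgeR adjusted p = 0.680). No gene of the 8 had groups that did not overlap, as held upward for 6.96% and downward for 6.03% of all genes. By edgeR 0 of the 8 were called, against 0.00689% of all genes, and 0 had an unadjusted p under 0.05, against 8.60% of all genes. DESeq2 and limma also called 0.

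C3 had a log2 fold change of 0.48 ± 0.653 and C2 one of 0.45 ± 0.225 (edgeR adjusted p = 0.850 and 0.613). For C4b the means were 40.7 ± 5.50 CPM in BTZ+anti-PDL1 tumours and 32.1 ± 25.5 CPM in isotype tumours, a log2 fold change of 0.35 ± 0.505 (edgeR adjusted p = 0.861). C3ar1 averaged 106.4 ± 20.0 CPM in BTZ+anti-PDL1 tumours and 85.7 ± 19.8 CPM in isotype tumours, a log2 fold change of 0.31 ± 0.186 (edgeR adjusted p = 0.669). The remaining log2 fold changes were 0.24 ± 0.740 for C5ar1, 0.04 ± 0.246 for Cfp and -0.15 ± 0.588 for Serping1, each smaller than its SE. Without isotype replicate 3 those of C4b and C3 were 1.22 and 1.49. Without isotype replicate 1 they were -0.015 and 0.11, and that of C5ar1 was -0.28.

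**Figure D4:**
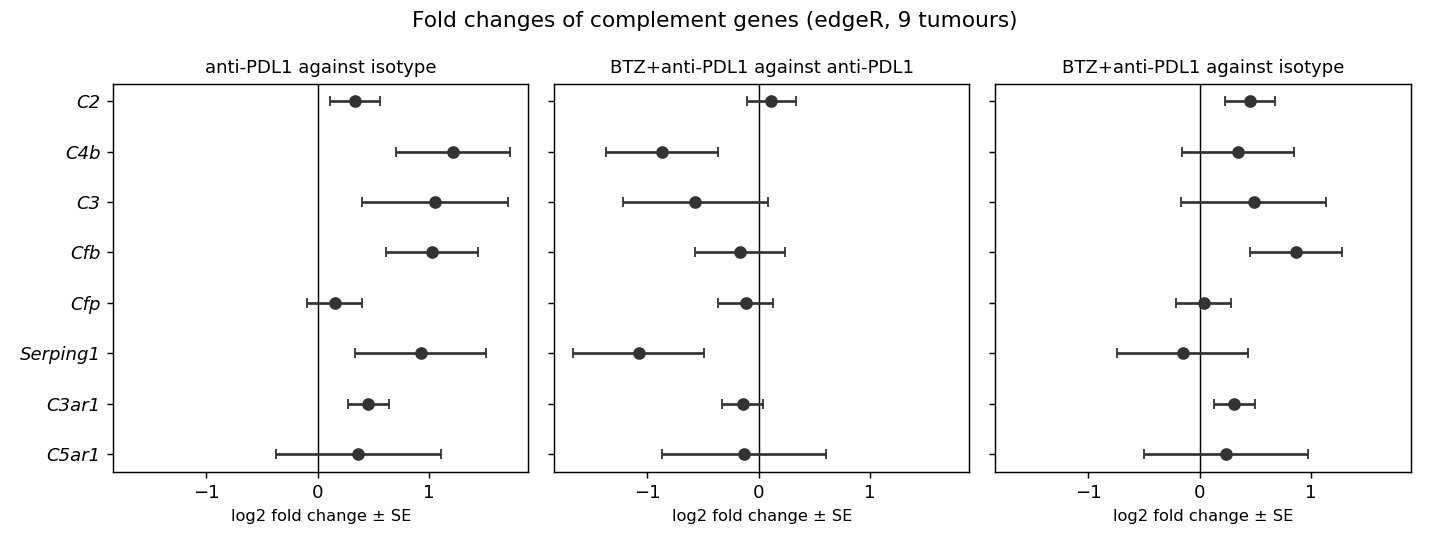
Points are edgeR log2 fold changes with whiskers of 1 SE for the 8 genes, in panels for anti-PDL1 against isotype (left), BTZ+anti-PDL1 against anti-PDL1 (middle) and BTZ+anti-PDL1 against isotype (right), all fitted on the same 9 tumours. All 8 points lie right of 0 in the first panel and 7 lie left of 0 in the second, with Serping1 at -1.08 and C4b at -0.87 the farthest left.

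The precision of these fold changes was lower than usual in the table. The median SE of the 8 genes was 0.461, 0.455 and 0.459 on the log2 scale for the 3 comparisons in the order above, against 0.138 over all genes. A p that misses the threshold at this spread does not show that the groups were alike.

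Beyond the 8 genes, 4 lists held 48 further complement genes, of which 23 passed the filter. In anti-PDL1 against isotype 17 of the 23 were fitted higher and 6 lower, and their median log2 fold change was 0.29. In BTZ+anti-PDL1 against anti-PDL1 it was 8 higher and 15 lower, with a median of -0.044, and in BTZ+anti-PDL1 against isotype 14 higher and 9 lower, with a median of 0.18. Over all genes 49.0% were higher in the first of these comparisons, 49.2% lower in the second and 49.7% higher in the third. The same shares apply to the lists below. By edgeR none of the 23 was called in any comparison. An unadjusted p under 0.05 was found for 1, 0 and 1 of them, against 6.35%, 5.82% and 8.60% of all genes.

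Of the 17 genes of classical and lectin initiation, 9 passed. In anti-PDL1 against isotype 8 of the 9 were higher. The 3 with the smallest p were the C1q subunit gene C1qc with a log2 fold change of 0.33 ± 0.218, the C1r protease gene C1ra with 0.31 ± 0.214 and the ficolin gene Fcna with 0.26 ± 0.183, while the C1s protease gene C1s1 had the largest log2 fold change of the list, 0.65 ± 0.555. Of the same genes 7 were lower in BTZ+anti-PDL1 against anti-PDL1, with C1s1 at -0.86 ± 0.558 and C1ra at -0.37 ± 0.214, while C4a was at 0.28 ± 0.347. In BTZ+anti-PDL1 against isotype 5 of the 9 were higher, with C1qb at 0.36 ± 0.241, C1qa at 0.30 ± 0.228 and C1qc at 0.28 ± 0.218. C1ra and C1s1, the proteases that C1 inhibitor blocks, were lower in BTZ+anti-PDL1 against anti-PDL1, as was Serping1. So were 7 of the 9 genes of this list and 7 of the 8 members. Unlike Serping1, C1ra and C1s1 overlapped between those groups. None of the 3 was called, and a link between them was not tested.

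Of 8 genes of alternative amplification and the terminal pathway only Cfd and C6 passed. In every tumour 0 counts were found for C8a and C8b, which allows up to 0.140 to 0.160 CPM in a tumour, counting error alone considered. Cfd encodes factor D, the protease that activates factor B and a known product of fat cells. It had 7.56, 1.60 and 24.9 CPM in BTZ+anti-PDL1 tumours, 17.2, 6.65 and 2.76 CPM in anti-PDL1 tumours, and 0, 0.445 and 58.1 CPM in isotype tumours. All groups overlapped and isotype replicate 3 was the highest, as it was for the 5 adipocyte markers, whose sums were 8.87 to 32.3 CPM in BTZ+anti-PDL1 tumours, 15.8 to 28.5 CPM in anti-PDL1 tumours and 10.1 to 102.5 CPM in isotype tumours. The part of fat tissue in Cfd was not tested. Its log2 fold changes had an SE of 1.93 to 1.95, and C6, a pore component, was near the floor at a mean of 0.539 CPM in BTZ+anti-PDL1 tumours, 1.18 CPM in anti-PDL1 tumours and 0.504 CPM in isotype tumours.

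Of 17 complement regulators 7 passed. Cr1l, the mouse gene of the membrane regulator Crry, was higher in every anti-PDL1 tumour than in any isotype tumour, as held for 6.08% of all genes. It had 53.8, 43.4 and 57.2 CPM in anti-PDL1 tumours and 43.2, 40.4 and 42.4 CPM in isotype tumours. The log2 fold change of Cr1l in this comparison was 0.29 ± 0.108 (edgeR adjusted p = 0.763). Its log2 fold change in BTZ+anti-PDL1 against isotype was 0.19 ± 0.108. Cd46 and Cd55, membrane regulators, had log2 fold changes of 0.36 ± 0.237 and -0.66 ± 0.628 in BTZ+anti-PDL1 against anti-PDL1, and Cd46 one of -0.27 ± 0.237 in anti-PDL1 against isotype. Vtn, which encodes vitronectin, had -0.63 ± 0.678 in BTZ+anti-PDL1 against isotype.

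Of 6 other complement receptors 5 passed, and all 5 had a higher fitted value than in isotype tumours in both comparisons with isotype. Itgax, a subunit of complement receptor 4 and a marker of dendritic cells and some macrophages, had 31.0, 30.7 and 40.5 CPM in BTZ+anti-PDL1 tumours, 31.5, 25.1 and 25.3 CPM in anti-PDL1 tumours, and 22.7, 19.6 and 25.0 CPM in isotype tumours. Every BTZ+anti-PDL1 tumour and every anti-PDL1 tumour was above every isotype tumour, as held for 6.96% and 6.08% of all genes. Its log2 fold change was 0.60 ± 0.147 in BTZ+anti-PDL1 against isotype (edgeR adjusted p = 0.363), 0.32 ± 0.146 in BTZ+anti-PDL1 against anti-PDL1 and 0.28 ± 0.147 in anti-PDL1 against isotype. Itgam, a subunit of complement receptor 3, had log2 fold changes of 0.51 ± 0.234 in anti-PDL1 against isotype and 0.47 ± 0.234 in BTZ+anti-PDL1 against isotype. For Itgb2, the chain that both receptors share, these were 0.38 ± 0.205 and 0.42 ± 0.205. C5ar2, the second C5a receptor, had -0.08 ± 0.372 in BTZ+anti-PDL1 against anti-PDL1.

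A list of 10 interferon-gamma response genes, all of which passed, is set beside the complement genes here. Its median log2 fold change was 0.44 in anti-PDL1 against isotype, 0.25 in BTZ+anti-PDL1 against anti-PDL1 and 0.79 in BTZ+anti-PDL1 against isotype, with 10, 9 and 10 of the 10 genes higher and none called by edgeR. The complement genes had medians of 0.69, -0.15 and 0.33 in the same comparisons, and the difference between the lists was not tested. Cxcl10, a T cell attracting chemokine, had 77.8, 59.2 and 96.8 CPM in BTZ+anti-PDL1 tumours, 41.2, 50.7 and 46.7 CPM in anti-PDL1 tumours, and 35.1, 19.5 and 50.2 CPM in isotype tumours. Every BTZ+anti-PDL1 tumour was above every isotype tumour for Cxcl10, as held for 6.96% of all genes. The log2 fold change of Cxcl10 was 0.76 ± 0.321 against anti-PDL1 and 1.16 ± 0.325 against isotype (edgeR adjusted p = 0.854 and 0.498). Irf1, an interferon-induced transcription factor, had log2 fold changes of 0.25 ± 0.180 and 0.53 ± 0.181 in those comparisons, and Tap1, a peptide transporter for antigen presentation, 0.28 ± 0.286 and 0.75 ± 0.288. In anti-PDL1 against isotype Tap1 had 0.47 ± 0.288, Ciita, the regulator of class II genes, 0.80 ± 0.421, and Cd274, the gene of PDL1 itself, 0.57 ± 0.269.

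The 8 genes did not share 1 pattern over tumours. Likeness was measured as the root mean square difference of log2 CPM, each gene centred on its mean over the 9 tumours, against 12294 genes with a mean of at least 1 CPM. The gene most like C3 was C4b, at 0.332 on the log2 scale, followed by Ighm at 0.369 and Serping1 at 0.398, where the median over all genes was 0.905. C4b was most like Sned1 (0.317), then C3 and Itm2a (0.398), and Serping1 was most like Ms4a4d (0.281), Sned1 (0.297) and Mmp2 (0.303). These 3 complement genes lay above their own mean in all 3 anti-PDL1 tumours and in isotype replicate 3, as did C3ar1 and C5ar1.

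Cfp and C3ar1 varied less and were 0.223 apart, closer than any other pair of the 8. The genes most like Cfp were Rnf130 (0.0862), Hfe and Renbp, and those most like C3ar1 were Pik3r5 (0.0969), Tmem185b and Nfam1. C2 was most like Dhcr7 (0.104), Usp43 and Eldr. Cfb was most like Angptl7 (0.270), Ptger4 and Ighm, on counts without those of Gm20547. C5ar1 had its nearest genes farther off, with Auts2 at 0.389, then Pygo2 and Parm1, and its farthest tumour from the mean was isotype replicate 1, at -2.87 on that scale.

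RefSeq promoter windows of GRCm38.p6, from 250 bases before to 50 after the start, were at hand for C3, Cfp, C3ar1 and C5ar1, while C2, C4b, Cfb and Serping1 had no matched entry. They were searched on both strands for the interferon-gamma activated site TTCNNNGAA, the interferon-stimulated response element (ISRE) and the kappaB consensus. None of the 4 windows held any of the motifs, which occur in 8.3%, 3.44% and 8.46% of 32851 windows in the order given. This says only that these letters are not in these windows.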

How the data were processed

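RNA of 9 tumours was sequenced from total RNA with a universal Illumina kit, per the labels' protocols. The deposited counts are whole numbers per gene, not normalised, and the FPKM columns beside them are also the authors' own, per the file headers. Per the submitters' processing notes, HISAT2 2.0.4, StringTie 1.3.3b and mm10 were used, in roles not stated. How genes were counted, with which annotation and strand setting, is not given in the sources used here, so overlapping genes are uncertain (C2 also shares 161 exonic bases with Zbtb12 on the other strand).

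The test was that of edgeR 4.0.16 under R 4.3.3 (quasi-likelihood F test, robust, TMM scaling, filterByExpr with minimum count 10, 1 model of 3 group means, 6 residual degrees of freedom), with Benjamini-Hochberg adjustment over 14506 genes and calls at 0.05. The steps were tested on simulated data first. Each SE follows from the F statistic, as the size of the log2 fold change over the root of F. CPM is TMM-scaled. Alternatives used DESeq2 1.42.0 and limma 3.58.1, among others. Control samples follow the treatment label (isotype), though their titles say blank. The members and all gene lists were chosen with earlier results of these data known. Named genes are the members, the 3 genes of each list with the smallest p per comparison, and the 3 genes most like each member. The values of 1 list gene are not reported here. Gm20547 and Tat, Nkx2-1, Sftpb, Sftpc, Epcam, Col1a1, Col1a2, Pdgfrb, C8a, C8b and (in anti-PDL1 against isotype) C1s1 were named after their values were seen. So were Krt8, Krt18, Krt19, Napsa and Cdh1. For Itgam, which has 2 IDs, ENSMUSG00000030786 was used. Sequence and exons came from mm10 with GENCODE M21, where all 8 members and Gm20547 lay at the deposited locus.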

Additional observations from a re-analysis of the deposited data

How the results depend on the processing

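Over 18 alternative settings the 8 genes gave 432 values, none called, with a lowest adjusted p of 0.0506, and 17 reversed sign. DESeq2 called 15, 61 and 109 genes in anti-PDL1 against isotype, then BTZ+anti-PDL1 against anti-PDL1, then BTZ+anti-PDL1 against isotype, an order kept here, where edgeR called 2, 2 and 1. In the last 2 comparisons 4 and 6 genes were called without a count filter, and 12 and 0 with only the 6 tumours compared. In BTZ+anti-PDL1 against isotype limma called 3 genes on log2(FPKM + 1) and 3 on log2(FPKM + 0.1). Without the muscle-rich tumour of each group (replicate 1 of BTZ+anti-PDL1 and of anti-PDL1, replicate 3 of isotype) 0, 0 and 0 genes were called, no member was higher in BTZ+anti-PDL1 against anti-PDL1 (0 of 8), C2 there was -0.076, and Serping1 in BTZ+anti-PDL1 against isotype was 0.39. Serping1 there was 0.029 with limma on log2(FPKM + 1) and 0.061 on log2(FPKM + 0.1). The cause was not tested.

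Replicate numbers did not pair the tumours: correlations of same-numbered deviations ran from -0.434 to 0.393, and 2, 2 and 0 of 6 tumours correlated best with their own number. A replicate block called 1, 1 and 0 genes and no member.

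Leaving out each tumour, genes called ran from 1 to 4, 1 to 7 and 0 to 20, members with a higher value from 7 to 8, 0 to 2 and 4 to 8, and members called from 0 to 0. Log2 fold changes that reversed ran, in anti-PDL1 against isotype, from -0.038 to 0.54 (Cfp) and -0.15 to 1.23 (C5ar1). In BTZ+anti-PDL1 against anti-PDL1 they ran from -0.034 to 0.30 (C2), -0.43 to 0.19 (Cfb) and -0.26 to 0.0048 (C3ar1). In BTZ+anti-PDL1 against isotype they ran from -0.015 to 1.22 (C4b), -0.15 to 0.43 (Cfp), -0.55 to 0.54 (Serping1) and -0.28 to 1.10 (C5ar1). Adding Gm20547 to Cfb, chosen after seeing the data, reversed no value and changed no call. Depth limits C2 most, at 66 to 143 counts a tumour.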
